A study of Mus musculus with 24 samples.

Results

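Accessible chromatin was described at 38 genes that interferon induces, out of 21939 protein-coding genes of the mouse annotation (GENCODE, mm10). The genes were taken from a list of names, by a rule that uses no measured value, and each was examined over its body and 10 kb on either side. The data were ATAC-seq (cutting of open DNA by the Tn5 transposase) from 24 libraries in 11 groups of cells sorted from bone marrow of C57BL/6 mice, and the study asked what happens to chromatin of blood precursors when Daxx, which deposits the histone variant H3.3, is deleted. All mice carried 1 Cre allele (Cre +/-). Daxx-WT mice were Daxx +/+, Daxx-KO mice were Daxx F/F with loxP sites around exons that Cre removes, and DKO mice were Daxx F/F Pu.1 F/F and so lost the transcription factor Pu.1 (Spi1) as well. The Daxx-WT and Daxx-KO groups had 2 libraries each, with no time in their labels, of long-term haematopoietic stem cells (LT-HSCs), of CMPs (common myeloid progenitors) and of GMPs, the progenitors of granulocytes and monocytes. A further 2 Daxx-WT and 3 Daxx-KO libraries were of LT-HSCs at 3 d.p.i., and KLS cells (c-Kit+ Lin- Sca-1+ precursors) at 3 w.p.i. gave 2 libraries of Daxx-WT, 3 of Daxx-KO and 2 of DKO mice. The abbreviations d.p.i. and w.p.i. count days and weeks after Cre was induced.

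Per the methods of the study, LT-HSCs, CMPs and GMPs came from mice with a tamoxifen-activated Cre expressed in all cells from Rosa26. Both genotypes received tamoxifen, and cells without a time label were taken 3 weeks later. DKO mice were bred from a line with Cre under the Mx1 promoter, which is switched on by pI:pC, a synthetic double-stranded RNA that itself elicits interferon. DKO mice received pI:pC, and the Cre line of the Daxx-WT and Daxx-KO KLS libraries is not given in the sources used here. The study describes its genomic samples as biological replicates. The labels give both controls at 3 d.p.i. as Daxx +/+, whereas a legend on data of that time gives its controls as Daxx +/+ and Daxx +/F without tying either to a library. Mice of both sexes entered the study and were mostly treated as young adults.

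Interferons bind cell-surface receptors whose kinases phosphorylate STAT proteins. A complex that holds Stat2 and Irf9 then binds the interferon-stimulated response element, a repeated GAAA motif, at promoters of a broad set of antiviral genes. The products bind or degrade foreign RNA, block entry and release of viruses, deplete nucleotides, or feed back on the pathway. Haematopoietic stem cells are known to keep part of this programme on without infection, and interferon drives them out of quiescence. The C57BL/6 strain carries a defective Mx1 gene, so Mx1 is read here as a locus and not as an antiviral protein.

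The promoter sequences of 28 of the 38 genes were found in RefSeq (GRCm38.p6). Sequences of Dhx58, Ifi27, Mx1, Mx2, Oas2, Parp14, Parp9, Rtp4, Usp18 and Zbp1 were not used here. The response element core was searched as 2 copies of GAAA separated by 2 bases, on both strands, from 250 bases before to 50 bases after the start. It was present in 16 of the 28 promoters (57.1%) and in 3.99% of 27025 promoters of the same length. A STAT site (TTCNNNGAA) was present in 7 of 28 (25%) and in 9.55% of all promoters. The Pu.1 site GAGGAAGT, or ACTTCCTC on the other strand, was in 0 of 28 and in 3.69% of all promoters. The 120 bases before the start are shown for 7 genes, chosen to set promoters with the core beside promoters without it among genes whose peaks or sites are described below. Capitals mark the core, and a match in either orientation counts. Isg15 (chr4:156200819-156200938, minus strand) held 3 overlapping cores, Oas1a (chr5:120907526-120907645, minus) 2, Rsad2 (chr12:26456453-26456572, minus) 1, Ddx60 (chr8:61927967-61928086, plus) 2 and Igtp (chr11:58199436-58199555, plus) 1. Oasl2 (chr5:114896814-114896933, plus) and Ifit2 (chr19:34550574-34550693, plus) held none in this window.
Isg15: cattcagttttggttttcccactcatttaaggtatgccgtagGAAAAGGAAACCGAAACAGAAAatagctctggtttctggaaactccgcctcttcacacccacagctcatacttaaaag
Oas1a: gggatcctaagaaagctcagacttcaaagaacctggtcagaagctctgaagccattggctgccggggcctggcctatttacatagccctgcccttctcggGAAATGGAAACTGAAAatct
Rsad2: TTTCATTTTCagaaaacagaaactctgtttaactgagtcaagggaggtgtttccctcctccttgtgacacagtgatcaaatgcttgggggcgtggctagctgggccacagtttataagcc
Ddx60: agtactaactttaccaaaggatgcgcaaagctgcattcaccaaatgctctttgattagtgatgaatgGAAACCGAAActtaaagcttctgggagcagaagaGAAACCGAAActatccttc
Igtp: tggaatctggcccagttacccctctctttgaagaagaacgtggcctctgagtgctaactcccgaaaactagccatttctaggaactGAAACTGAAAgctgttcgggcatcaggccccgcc
Oasl2: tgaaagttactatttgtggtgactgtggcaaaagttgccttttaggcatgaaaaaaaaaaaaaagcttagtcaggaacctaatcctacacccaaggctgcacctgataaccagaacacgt
Ifit2: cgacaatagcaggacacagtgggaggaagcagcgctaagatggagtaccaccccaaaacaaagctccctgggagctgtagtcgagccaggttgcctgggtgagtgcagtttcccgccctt
The base composition of these promoters was ordinary. Their median GC content of 52.7% equalled that of all promoters, and their median of 6 CpG dinucleotides in 300 bases stood beside 7 over all promoters.

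The deposited files were 11 peak lists, 1 per group, and 3 tables of sites whose read numbers differed between a knockout group and its Daxx-WT group. The lists held between 22156 and 70455 peaks, and the headers of the site tables gave a mean of 4.21 to 16 reads per window of 600 bp in each library. Daxx and Spi1 were checked first as the targeted genes. A site over exons of Daxx (chr17:33909701-33911600) had 69.7, 109 and 61.2 scaled reads in the Daxx-KO LT-HSC libraries at 3 d.p.i. and 201 and 366 in Daxx-WT. A second Daxx site (chr17:33913451-33914950) had 13.4, 7 and 9.41 in the Daxx-KO KLS libraries, against 88.5 and 53.9 in Daxx-WT. At these Daxx sites the knockout libraries were thus below every control library. In DKO KLS cells a Daxx site (chr17:33909551-33912700) had 97.6 and 74.0, against 263 and 302 in Daxx-WT. Another exon site of Daxx (chr17:33914951-33915550) was higher in DKO, with 61.5 and 80.6 against 37.3 and 35.1. An exon site of Spi1 (chr2:91114801-91115800) had 2.12 and 4.68 in DKO KLS cells and 31.1 and 58.1 in Daxx-WT. The other listed Spi1 sites of that comparison were higher in DKO, such as chr2:91086901-91089400 with 314.9 and 270.8 against 110.9 and 119.5. Ly6a, which encodes the Sca-1 antigen used in sorting LT-HSCs and KLS cells, had no promoter peak in any of the 11 lists. Promoter peaks at 5 mature neutrophil genes (Ltf, Ngp, S100a8, S100a9, Camp) numbered 1 in the Daxx-WT KLS list, 1 in the Daxx-KO list and 4 in the DKO list.

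The promoters of interferon-stimulated genes were open in nearly all groups, with or without Daxx. A promoter peak here is a peak within 1000 bp of an annotated start. In LT-HSCs without a time label, 38 of 38 genes had one in the Daxx-WT list and 38 of 38 in the Daxx-KO list, beside 67.8% and 68.9% of all protein-coding genes. The numbers were 35 and 32 in Daxx-WT and Daxx-KO CMPs, where 65.0% and 61.7% of all genes had a peak. In GMPs they were 34 and 34, beside 62.9% and 60.4%. LT-HSCs at 3 d.p.i. had 36 in both genotypes, beside 62.3% and 64.5%. KLS cells had 34 in Daxx-WT, 38 in Daxx-KO and 27 in DKO, beside 58.7%, 62.0% and 51.1%. In 26 genes the promoter peak was present in all 11 lists, as it was in 49.3% of all genes. The lists had 1 version per group, so these counts carry no replicate error. The libraries are of bulk sorted cells, in which a smaller share of cells of 1 type and less open chromatin per cell cannot be told apart.

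**Figure D1:**
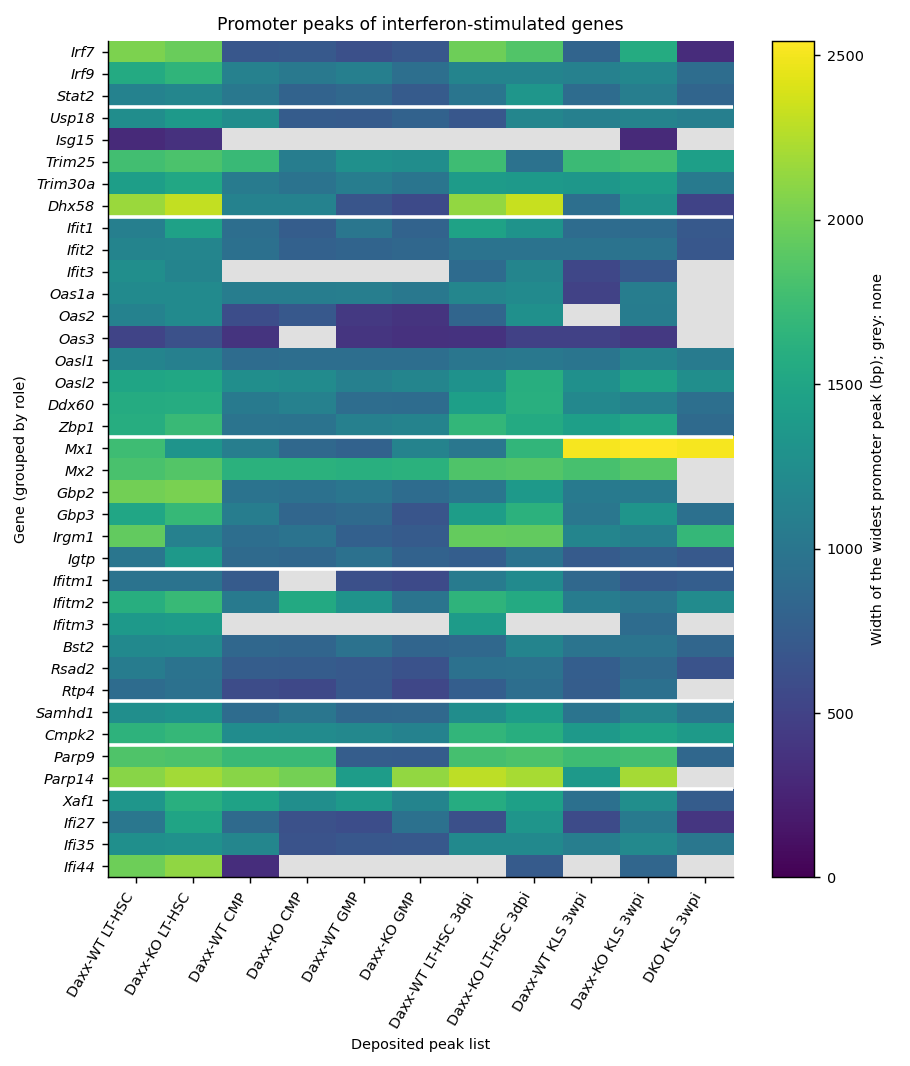
Width in bp (colour) of the widest promoter peak of each of the 38 genes (rows, grouped by role) in the 11 deposited lists (columns), with grey where a list held none. Grey cells gather in the DKO column, where 11 genes lacked a peak, and in the rows of Isg15, Ifit3, Ifitm3 and Ifi44.

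By role, the factors that carry the signal stood open throughout. Irf7, which amplifies the response, and Stat2 and Irf9, which bind the response element, had a promoter peak in 11 of 11 lists. So did the feedback genes Usp18, which removes Isg15 from proteins and restrains the receptor, Trim25 and Trim30a, which are ubiquitin ligases, and Dhx58, an RNA sensor of the RIG-I family. Isg15, the ubiquitin-like modifier, was the exception in this group. It had a promoter peak in 3 lists, Daxx-WT LT-HSCs (304 bp wide), Daxx-KO LT-HSCs (360 bp) and Daxx-KO KLS cells (301 bp), although its promoter held more cores than any other promoter shown above.

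Among RNA-binding effectors and sensors, Ifit1 and Ifit2, which bind foreign RNA, Oasl1, Oasl2, Ddx60 and the nucleic acid sensor Zbp1 had a peak in all 11 lists. Ifit3 had one in 6 lists, in LT-HSCs of every group and in Daxx-WT and Daxx-KO KLS cells, and in no list of CMPs or GMPs. The oligoadenylate synthetases, which activate RNase L, lost peaks in a few lists. Oas1a had one in 10 lists, Oas2 in 9 and Oas3 in 9. Of the GTPases, Mx1, Gbp3, Irgm1 and Igtp had a peak in all 11 lists, and Mx2 and Gbp2 in all but the DKO list. Of the membrane and entry factors, Ifitm2, Bst2 (tetherin, which holds budding virus to the cell) and Rsad2 (viperin) had one in all 11. Ifitm1 and Rtp4 had one in 10 and Ifitm3 in 4. The dNTP hydrolase Samhd1, the nucleotide kinase Cmpk2, the ADP-ribosyltransferase family member Parp9, the apoptosis factor Xaf1, Ifi27 and Ifi35 had one in all 11, while Parp14 had one in 10 and Ifi44 in 5.

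Gains and losses between genotypes were few. Between Daxx-WT and Daxx-KO LT-HSCs, 0 of 38 genes gained and 0 lost a promoter peak, where 1.7% and 0.57% of all genes did. In CMPs 0 gained (0.665% of all genes) and 3 lost theirs, Ifi44, Oas3 and Ifitm1 (4.03%). In GMPs 0 gained (0.798%) and 0 lost (3.3%). At 3 d.p.i. Ifi44 gained and Ifitm3 lost a peak in Daxx-KO LT-HSCs, beside 3.07% and 0.903% of all genes. In Daxx-KO KLS cells 4 genes gained a peak, Ifi44, Isg15, Oas2 and Ifitm3 (4.23%), and 0 lost one (0.944%). These peaks, absent from the Daxx-WT list, differed in strength. The fold enrichment over local background was 2.47 at Isg15 and 3.15 at Ifitm3, against 5.31 at Ifi44 and 7.23 at Oas2. Absence from the list did not mean an absence of reads. At the Oas2 start (chr5:120749351-120750350) the Daxx-WT KLS libraries had 116 and 65.8 scaled reads, and no site was listed there in Daxx-KO KLS cells. In DKO KLS cells 0 gained (0.907%) and 7 lost a peak, Gbp2, Oas3, Oas1a, Rtp4, Parp14, Mx2 and Ifit3 (8.45%). When each of the 5 lists with fold enrichment was cut to its 22156 strongest peaks, the numbers of genes with a promoter peak were 28 and 27 in Daxx-WT and Daxx-KO LT-HSCs at 3 d.p.i. and 27, 25 and 27 in Daxx-WT, Daxx-KO and DKO KLS cells.

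**Figure D2:**
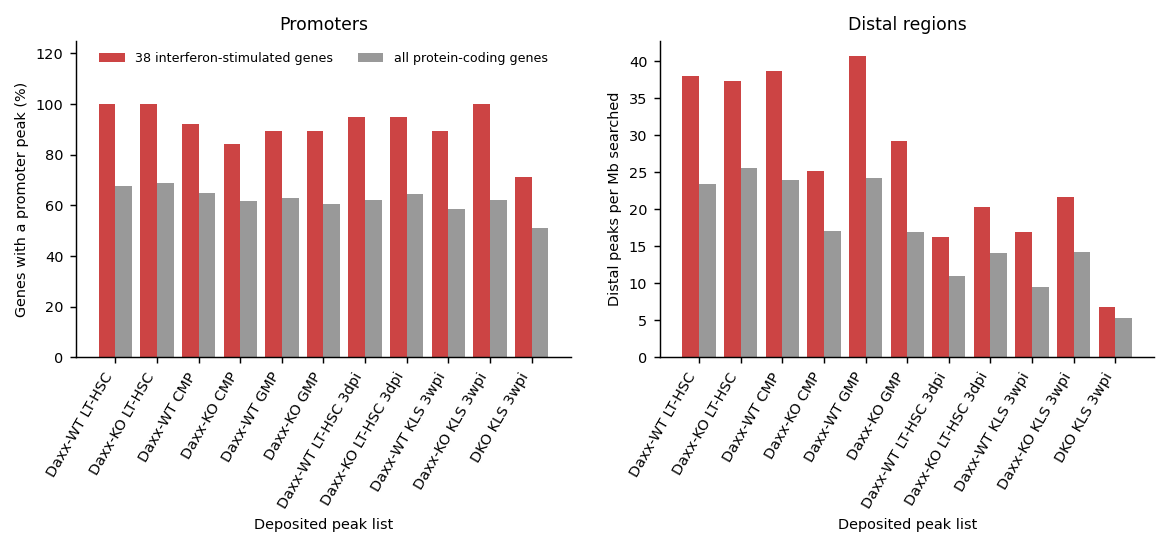
Left, share of the 38 genes (red) and of all protein-coding genes (grey) with a promoter peak in each list. Right, distal peaks per Mb searched around the 38 genes (red) and around all protein-coding genes (grey), which were higher in red in all 11 lists and lowest in DKO KLS cells (6.79 and 5.31 per Mb).

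Where fold enrichment was given, the open promoters of these genes were weaker than promoters at large. The median fold enrichment was 7.42 in Daxx-WT LT-HSCs at 3 d.p.i., beside 9.23 over all genes with a promoter peak. It was 8.09 beside 9.65 in Daxx-KO LT-HSCs, 6.10 beside 7.43 in Daxx-WT KLS cells, 7.59 beside 8.41 in Daxx-KO KLS cells and 5.21 beside 6.55 in DKO KLS cells. Median widths were near those of all promoter peaks, from 857.5 bp beside 1056 bp in Daxx-KO GMPs to 1428 bp beside 1455 bp in Daxx-KO LT-HSCs. Oas3 had narrow peaks throughout (360 to 634 bp) and Parp14 wide ones (1371 to 2292 bp). In Daxx-WT LT-HSCs at 3 d.p.i. the response element core lay within the central 300 bases of 12 of 36 promoter peaks (33.3%), beside 2.33% of all, and the Pu.1 site within that of 2 of 36 (5.56%), beside 2.48% of all. The strongest promoter in Daxx-WT LT-HSCs was that of Stat2 (13.7), ahead of Usp18 (12.1), Irf9 (11.6) and Trim30a (11.3). Oas3 (3.31) and Ifitm3 (2.58) were the lowest of those with a peak.

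Fold enrichment at these promoters was mostly higher in Daxx-KO than in Daxx-WT lists and lower in DKO, as it was at promoters at large. In LT-HSCs at 3 d.p.i., 30 of 35 genes with a peak in both lists had the higher fold enrichment in Daxx-KO, beside 74.5% of 13477 genes. The median log2 ratio was 0.17 for these genes and 0.08 for all. Ifi27 had the highest ratio (log2 0.57, from 7.32 to 10.9), followed by Ifit3 (0.47) and Oas2 (0.36), and Parp9 and Gbp2 had the lowest (-0.17 each). In Daxx-KO KLS cells 32 of 34 were higher, beside 89.5% of 12668 genes, with medians of 0.26 and 0.21. Xaf1 (0.72, from 7.01 to 11.6) and Rtp4 (0.72, from 5.83 to 9.59) had the highest ratios and Oas3 the lowest (-0.14).

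In DKO KLS cells 4 of 27 genes had a higher fold enrichment than in Daxx-WT, beside 14% of 11021 genes, with median log2 ratios of -0.27 and -0.24. The 4 genes were Samhd1 (0.29), Oasl1 (0.29), Ifitm2 (0.26) and Irgm1 (0.10). Ifit1 had the lowest ratio (-0.95, from 8.59 to 4.45), ahead of Ifitm1 (-0.90), Gbp3 (-0.83), Mx1 (-0.82) and Ifit2 (-0.81). The shares over the 38 genes were thus near those over all genes in the 3 comparisons. The lists have no replicates, so no test was possible, and the KLS comparisons share 1 Daxx-WT list.

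**Figure D3:**
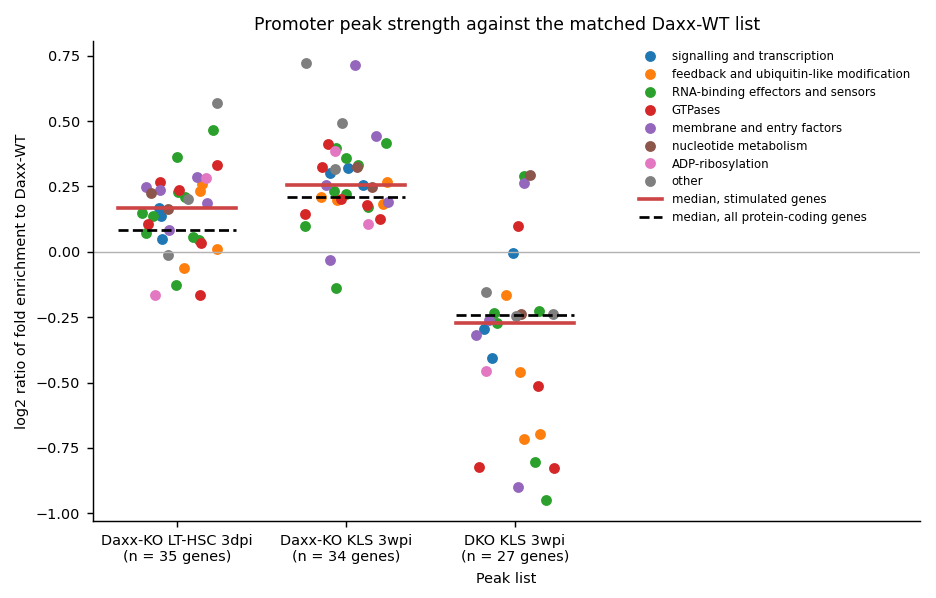
Log2 ratio of the fold enrichment of promoter peaks to the matched Daxx-WT list, 1 point per gene with a peak in both lists, coloured by role, with the median of these genes (red line) and of all protein-coding genes (dashed line). Points lie mostly above 0 in the Daxx-KO lists (30 of 35 and 32 of 34) and below 0 in the DKO list, where 4 of 27 lie above.

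The Mx1 promoter peak was widest in the KLS lists. It spanned 2510 bp in Daxx-WT (chr16:97462779-97465288), 2544 bp in Daxx-KO (chr16:97462750-97465293) and 2506 bp in DKO KLS cells (chr16:97462841-97465346), which was wider than 99.9%, 99.7% and 99.9% of the promoter peaks of the same list. In the other 8 lists it spanned 803 to 1752 bp, and was wider than 18.3% to 79.5% of promoter peaks. The KLS peaks ended at nearly the same position upstream of the gene. A Cre transgene under the Mx1 promoter carries a copy of sequence upstream of Mx1, and reads from such a copy and from the gene cannot be told apart. Its part in the width was not tested.

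Distal accessible regions, more than 1000 bp from every annotated start, were denser around these genes than around genes at large. In LT-HSCs without a time label, 56 distal peaks lay around the 38 genes in Daxx-WT and 55 in Daxx-KO, which was 38.02 and 37.3 per Mb searched beside 23.4 and 25.6 for all genes. CMPs had 57 and 37 in Daxx-WT and Daxx-KO (38.7 and 25.1 per Mb beside 24.0 and 17.1). GMPs had 60 and 43 (40.7 and 29.2 beside 24.2 and 17.0). At 3 d.p.i. LT-HSCs had 24 and 30 (16.3 and 20.4 beside 10.9 and 14.2). KLS cells had 25 in Daxx-WT, 32 in Daxx-KO and 10 in DKO (17.0, 21.7 and 6.79 beside 9.46, 14.25 and 5.31). The 38 genes were shorter than genes at large (median 13.4 beside 17.4 kb), and the part of gene length in these densities was not tested. Merged over lists, these were 88 regions around 34 of the 38 genes, of which 7 were present in all 11 lists, 18 in 1 list, 15 in Daxx-WT lists alone and 6 in Daxx-KO or DKO lists alone. Regions were not merged in this way for all genes, so these counts have no share over all genes beside them. The lists also differ in peak number, so the counts do not measure a difference between genotypes.

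The 7 constant regions lay between Rsad2 and Cmpk2 (chr12:26459768-26460583), upstream of Irf7 (chr7:141268457-141269499), downstream of Irgm1 (chr11:48855885-48857216), downstream of Ifitm2 (chr7:140946822-140947975), at an exon of Ifitm3 (chr7:141008257-141009628), and in introns of Oas3 (chr5:120775148-120776065) and Trim30a (chr7:104445685-104446989). In the Daxx-WT LT-HSC list the response element core was present around the centre of 9 of the 56 distal peaks (16.1%), beside 5.39% of 30089 distal peaks. The Pu.1 site was present in 7 of 56 (12.5%), beside 7.82%.

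Loss of distal peaks followed the lists as a whole. Daxx-KO CMPs lacked 19 of the 57 Daxx-WT peaks and Daxx-KO GMPs 21 of 60, where 34.7% and 33.6% of all distal peaks were lost. At 3 d.p.i. 8 of the 30 Daxx-KO peaks had no Daxx-WT counterpart, beside 33% of all. In KLS cells 10 of the 32 Daxx-KO peaks had none, beside 42.1%, and 17 of the 25 Daxx-WT peaks were absent from DKO, beside 67.3%.

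Sites that lay near more than 1 of these genes, such as Oas2 and Oas3, were counted once. The site tables hold values per library, in reads divided by a constant of that library (scaled reads). A site was listed by the authors only if the read numbers differed between groups, so every listed site had to differ. Libraries of the groups compared did not overlap at 99.5% of 11927 listed sites in LT-HSCs, 99.6% of 17311 in Daxx-KO KLS cells and 50909 of 50928 (100% when rounded) in DKO KLS cells, nor at any listed site of the 38 genes. What the tables add is which genes had a site, in which direction, and at what level.

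Listed sites near interferon-stimulated genes in LT-HSCs at 3 d.p.i. were mostly higher without Daxx, whereas those of the whole table were mostly lower. Of 21 sites, 15 were higher in Daxx-KO, beside 29.1% of the table. Peaks here and below are those of the groups compared. All 9 sites that overlapped a peak were higher, beside 66.3% of such sites in the table, and 6 of the 12 outside peaks were higher, beside 14%. Of the 9, 7 overlapped a peak of both lists and 2 a peak of the Daxx-KO list alone. A higher site lay within 10 kb of 11 of 38 genes (12.3% of all genes) and a lower one within 10 kb of 6 (24.6%). At promoters the numbers were 5 higher (3% of all genes) and 2 lower (4.3%). No set test was run on these counts. With limma and Benjamini-Hochberg adjustment over the 413247 windows tested, 0 of the 21 sites and 0% of 11927 listed sites passed 0.05. The unadjusted limma p was below 0.05 at 19 of the 21, beside 11454 of the 11927 listed sites. The Daxx-KO libraries had a mean of 9.49, 4.21 and 9.59 reads per window and the Daxx-WT libraries 9.60 and 7.93, and the part of these means in the directions was not tested. With reads scaled to the mean per window all differences moved by a median of 0.33 on the log2 scale, and 15 sites were again higher.

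The 5 higher promoter sites belonged to Oas2, Oasl2, Rtp4, Ifi27 and Irf7. At the start of Oas2 (chr5:120748701-120750500) the Daxx-KO libraries had 196, 244 and 214 scaled reads and the Daxx-WT libraries 121 and 108, so the lowest Daxx-KO value stood well above the highest Daxx-WT value. The log2 difference was 0.92 ± 0.23 (SE), with a limma adjusted p of 0.31. Oasl2 (chr5:114896001-114897150) had 120, 176 and 132 in Daxx-KO, against 77.8 and 79.7 in Daxx-WT. Rtp4, a chaperone-like protein induced by interferon, had 54.1, 49.6 and 43.3 at its start (chr16:23608651-23609250) and 29.3 and 24.4 in Daxx-WT. At both genes each Daxx-KO library was higher than each Daxx-WT library, and the log2 differences were 0.83 ± 0.25 and 0.85 ± 0.23.

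The other promoters had a wider spread among Daxx-KO libraries. Ifi27 (chr12:103433951-103434800) had 159, 191 and 107, against 96.9 and 91.0 in Daxx-WT. Irf7 (chr7:141265951-141266550) had 301, 385 and 242, against 235.5 and 217.6. The third Daxx-KO library was close to the Daxx-WT range at both, and the log2 differences were 0.65 ± 0.29 and 0.42 ± 0.26, with a limma adjusted p of 1 for each. The 2 lower promoter sites were in Irgm1, an immunity-related GTPase, where an intronic site (chr11:48869701-48870450) had 61.5, 77.3 and 72.8 against 101 and 112, and at an internal start of Dhx58 (chr11:100697951-100698600), which had 10.1, 8.59 and 16.9 against 30.4 and 31.9. Neither overlapped a peak of the 3 d.p.i. lists. The Irgm1 site overlapped a region (chr11:48869371-48869996) with a peak in the Daxx-WT and Daxx-KO LT-HSC lists without a time label.

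Distal sites of LT-HSCs were higher around Irgm1, Oas2 and Isg15. In an exon of Irgm1 (chr11:48863501-48864500) the Daxx-KO libraries had 64.2, 45.8 and 77.1 scaled reads and the Daxx-WT libraries 25.9 and 26.3 (log2 difference 1.195 ± 0.27). Upstream of Irgm1 (chr11:48873451-48874300) they had 111, 128 and 101 against 76.6 and 67.5. The Daxx-KO libraries thus lay above Daxx-WT on both sides of the lower intronic site of the same gene. Downstream of Oas2 (chr5:120721651-120722400) the values were 39.5, 27.7 and 37.0 against 15.8 and 14.1. Upstream of Isg15 (chr4:156209501-156210200) they were 36.7, 37.2 and 39.1 against 16.9 and 17.8, with little spread within either group. The 4 lower distal sites, near Igtp, Trim25, Ifi35 and Irf9, had 6.42 to 22.9 scaled reads in the Daxx-KO libraries and 25.3 to 48.5 in Daxx-WT, and none overlapped a peak.

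**Figure D4:**
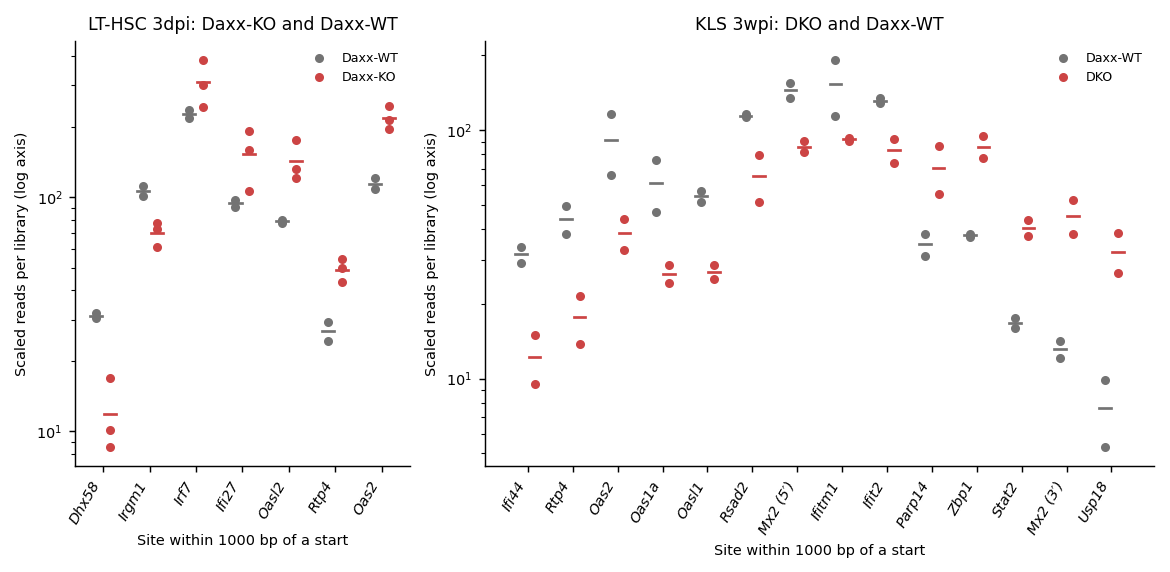
Scaled reads per library (points, log axis) and group means (short lines) at listed promoter sites of interferon-stimulated genes, in LT-HSCs at 3 d.p.i. (left) and in DKO and Daxx-WT KLS cells at 3 w.p.i. (right), ordered by difference. Dhx58, Usp18, Zbp1 and the 3′ site of Mx2 lie at starts other than the principal one, and the groups separate at every site because sites were listed for differing.

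KLS cells without Daxx had mostly lower sites at low read numbers, and lower sites also prevailed in the table as a whole. Of 27 sites, 26 were lower and 1 was higher, beside 19.1% higher in the table. Of the 5 sites in peaks 1 was higher, beside 61.0% in the table, and of the 22 outside peaks 0 were, beside 8.6%. A higher site lay within 10 kb of 1 gene (9.78% of all genes) and a lower one within 10 kb of 18 (40%). At promoters 0 genes had a higher site (1.98%) and 2 a lower one (8.71%). With limma, 0 of 27 sites and 0% of 17311 listed sites passed after adjustment over 407030 windows. The unadjusted limma p was below 0.05 at 27 of 27, beside 16749 of the 17311 listed sites. Mean reads per window were 8.13, 4.54 and 5.59 in Daxx-KO, against 8.36 and 7.49 in Daxx-WT. Promoter sites were also lower at 3 of 5 mature neutrophil genes (Camp, Ngp, S100a9) and at 2 of 9 stem and progenitor genes (Hlf, Mecom). They were higher at 2 of 4 B cell genes (Ebf1, Pax5), and among 4 T and NK cell genes Lck was higher and Cd3e lower. The part of these values in the lower sites was not tested. With reads scaled to the mean per window all differences moved by a median of 0.47, and 1 site was again higher.

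The higher site lay upstream of Trim25 (chr11:88993301-88994350), a ubiquitin ligase of the RIG-I pathway, in a peak of the Daxx-KO list alone. It had 119, 106 and 116 scaled reads in Daxx-KO, against 61.1 and 68.8 in Daxx-WT, a log2 difference of 0.80 ± 0.28 (limma adjusted p = 0.55). The promoter sites were at internal starts outside peaks, in Stat2 (chr10:128283251-128284150), with 29.0, 31.5 and 21.6 against 52.0 and 49.3, and in Oasl1 (chr5:114936901-114937500), with 13.4, 11.4 and 8.47 against 25.5 and 27.5. So no listed site covered the principal promoter of any of the 38 genes in this comparison.

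The lower distal sites with the largest differences between group means held few reads. Upstream of Oas2 (chr5:120751601-120752350) the Daxx-KO libraries had 14.5, 2.62 and 4.70 and the Daxx-WT libraries 27.4 and 26.4 (log2 difference -2.03 ± 0.55). In an exon of Irgm1 (chr11:48862151-48862750) they had 11.1, 2.62 and 3.76 against 20.1 and 22.9, and 75% of that site was soft-masked repeat sequence. The second Daxx-KO library, which had the lowest mean per window, was the lowest at both. An intronic Stat2 site (chr10:128275301-128275900) had 11.1, 7 and 1.88 against 20.98 and 20.6, and a site downstream of Oas2 (chr5:120720701-120721350) had 11.1, 7 and 6.58 against 27.4 and 21.8.

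**Figure D5:**
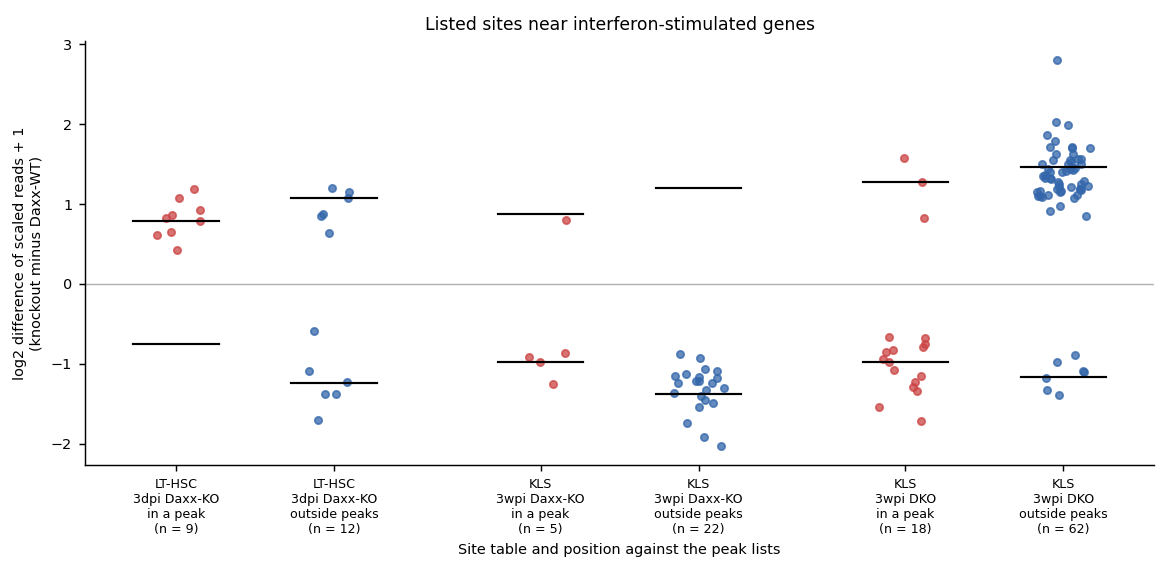
Log2 difference of scaled reads (knockout minus Daxx-WT) at each listed site near the 38 genes, by table and by position in (red) or outside (blue) the peaks of the groups compared, with black lines at the medians of all higher and all lower listed sites of the table. In LT-HSCs all 9 sites in peaks lie above 0, in Daxx-KO KLS cells 26 of 27 sites lie below 0, and in DKO KLS cells sites outside peaks lie mostly above 0 and sites in peaks mostly below.

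DKO KLS cells had the most sites, 80 around the 38 genes, and the most in the whole table (50928, beside 17311 in Daxx-KO KLS cells and 11927 in LT-HSCs). Around the 38 genes there were 54.3 sites per Mb searched, beside 30.4 for all protein-coding genes. The same rates were 18.3 beside 10.3 in Daxx-KO KLS cells and 14.3 beside 6.97 in LT-HSCs. Of the sites in peaks 3 of 18 were higher, beside 30.2% in the table. Of the 15 lower ones 11 overlapped a peak of the Daxx-WT list alone, and of the 3 higher ones 2 overlapped a peak of the DKO list alone, so being in a peak is not independent of the direction. Outside peaks 55 of 62 were higher, beside 88.2%. In all, 58 of 80 were higher, beside 72.1% of the table. A higher site lay within 10 kb of 25 genes (54.3% of all genes) and a lower one within 10 kb of 17 (34.9%). At promoters 5 genes had a higher site (14.6%) and 9 a lower one (15.1%). With limma 66 of the 80 sites passed after adjustment over 446463 windows, 54 higher and 12 lower, beside 82.2% of all 50928 listed sites. limma gave every site of this table the same SE of 0.36.

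These calls depended on the scaling and on both DKO libraries. Mean reads per window were 9.98 and 16 in DKO and 8.35 and 7.45 in Daxx-WT, while the deposited scaling constants ranged from 0.87 to 1.14 over all tables. With reads scaled to the mean per window, all differences moved by a median of -0.67 on the log2 scale, and 25 sites passed, 3 higher and 22 lower. Over the whole table the calls then split into 3321 higher and 13847 lower (19.3% higher), against 34252 and 7603 (81.8% higher) as deposited. Leaving out either DKO library left 0 sites past the threshold, and leaving out Daxx-WT replicate 1 left 38. Cell type genes moved in the same comparison. Promoter sites were higher in DKO at 4 of 5 mature neutrophil genes (Camp, Ngp, S100a8, S100a9) and at 4 of 7 granulocyte and monocyte progenitor genes (Cebpe, Ctsg, Elane, Mpo), and lower at the stem and progenitor genes Cd34, Mecom and Meis1. The part of the cell mixture in the sites below was not tested.

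Promoters fell at 4 genes in DKO that passed under both scalings. At Rtp4 (chr16:23609001-23609700) the DKO libraries had 13.8 and 21.6 scaled reads and the Daxx-WT libraries 49.7 and 38.4 (log2 difference -1.29, limma adjusted p = 0.0051). Ifi44 (chr3:151749801-151750400) had 9.54 and 14.99 against 29.3 and 34.0 (-1.33, limma adjusted p = 0.00373). Both DKO libraries were below both Daxx-WT libraries, and Rtp4 also lacked a promoter peak in the DKO list. Oas2 (chr5:120749351-120750350) had 32.9 and 44.03 against 116 and 65.8 (-1.18, limma adjusted p = 0.0132), and Oas1a (chr5:120907251-120908100) had 28.6 and 24.4 against 47.0 and 75.7 (-1.15, limma adjusted p = 0.0174). At both synthetase promoters the Daxx-WT libraries stood apart from each other, and the lower of them was still above both DKO libraries. The Oas1a site spans the printed sequence with its cores.

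The other lower promoter sites did not pass as deposited and passed with reads scaled to the mean per window. Oasl1 (chr5:114923351-114923950) had 28.6 and 25.3 against 56.8 and 51.6 (-0.98). Rsad2, the viperin gene, had 79.5 and 51.5 against 116 and 113 (-0.83) at chr12:26455901-26456550, which overlaps the sequence printed above. The 5′ start of Mx2 (chr16:97535701-97536400) had 90.1 and 81.5 against 154 and 135 (-0.75). All 3 were below both Daxx-WT libraries by more than the gap between the libraries of a group. Ifit2 (chr19:34550051-34550800) had 92.3 and 74.0 against 135 and 128 (-0.66), and Ifitm1 (chr7:140967551-140968500) had 93.3 and 90.9 against 192 and 114 (-0.68), with the Daxx-WT libraries wide apart.

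Promoter sites that rose in DKO lay in exons or introns outside peaks. An internal start of Usp18 (chr6:121261801-121262450) had 26.5 and 38.4 scaled reads in DKO and 5.32 and 9.87 in Daxx-WT (log2 difference 1.99, limma adjusted p = 4.59e-06), and it also passed with reads scaled to the mean per window (1.35, adjusted p = 0.0277 with limma). A 3′ start of Mx2 (chr16:97559051-97559950) had 38.2 and 52.5 against 14.2 and 12.1 (1.70), in the gene whose 5′ start was lower. Stat2 (chr10:128271501-128272100) had 43.5 and 37.5 against 15.97 and 17.6 (1.22), and Zbp1 (chr2:173216501-173217900) had 77.4 and 94.6 against 37.3 and 38.4 (1.16). These 3 sites did not pass under the second scaling. An intronic site near the start of Parp14 (chr16:35870001-35870600) had 55.1 and 86.2 against 31.1 and 38.4 (0.98) and passed under neither.

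The distal sites with the largest rise between group means were near Zbp1, Parp14, Mx2 and Dhx58. Downstream of Zbp1 (chr2:173199851-173200600) the DKO libraries had 27.6 and 39.4 scaled reads and the Daxx-WT libraries 2.66 and 5.48 (log2 difference 2.80, limma adjusted p = 2.08e-11), and 69.2% of the site was repeat sequence. In an exon of Parp14 (chr16:35834151-35834750) they had 24.4 and 34.7 against 6.21 and 6.58 (2.02). Both passed under the second scaling, whereas the Mx2 site (chr16:97545951-97546900, 44.5 and 51.5 against 14.2 and 10.97) and the Dhx58 site (chr11:100689351-100690150, 29.7 and 43.1 against 8.87 and 12.1) did not.

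The distal sites with the largest fall between group means passed under both scalings. In an intron of the long annotated form of Rtp4 (chr16:23556751-23558000) the DKO libraries had 32.9 and 49.7 against 110 and 129 (-1.54, limma adjusted p = 0.000548), and nearer its start (chr16:23591051-23592150) 21.2 and 19.7 against 47.0 and 64.7 (-1.39). Downstream of Trim25 (chr11:89023651-89025000) they had 58.3 and 65.6 against 125.1 and 170 (-1.22), and in an intron of Samhd1 (chr2:157107951-157108950) 15.9 and 42.2 against 76.3 and 59.2 (-1.34). Of these, the first Rtp4 site and the Trim25 and Samhd1 sites lay in peaks of the Daxx-WT list that the DKO list lacked. So at Rtp4 the start and 2 intronic sites were all lower in DKO.

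Some loci had overlapping sites in more than 1 table. At the Oas2 start, the log2 difference was 0.92 in Daxx-KO LT-HSCs and -1.18 in DKO KLS cells, and at the Rtp4 start 0.85 and -1.29, with the 2 comparisons drawn from different libraries, cells and times. Upstream of Mx1 (chr16:97467801-97468800) a site was higher in Daxx-KO LT-HSCs, with 64.2, 68.7 and 67.6 scaled reads against 37.2 and 35.6 (0.86), in a peak that the Daxx-KO list alone held. A site that overlapped it was higher in DKO KLS cells, with 42.4 and 43.1 against 17.8 and 18.7 (1.19). Both of these sites lay within 1000 bp of the start of another annotated gene. The far Rtp4 intron was lower in both KLS tables (-1.25 in Daxx-KO and -1.54 in DKO), which share their Daxx-WT libraries. Upstream of Mx1, by contrast, a site was lower in Daxx-KO KLS cells (chr16:97465501-97466200, -1.17) and a site that overlaps it by 150 bp higher in DKO (chr16:97464501-97465650, 0.83), and neither passed. The Daxx-KO site also lay within 1000 bp of the start of another annotated gene. The DKO site overlaps the wide Mx1 promoter peak of the KLS lists, where reads from a transgene copy and from the gene cannot be told apart. Gbp2, Gbp3 and Xaf1 had no listed site in any table.

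Other genes of the pathway were counted from a list of 45. The receptor genes Ifnar1, Ifnar2, Ifngr1 and Ifngr2, the kinase genes Jak1, Jak2 and Tyk2 and 5 negative regulators such as Socs1 had promoter peaks in all 11 lists. Of 7 transcription factors, Irf5 and Irf8 lacked one in DKO KLS cells alone. Of 23 further stimulated genes, 19 to 22 had one, fewest in DKO. In LT-HSCs at 3 d.p.i. 9 of the 45 had a higher and 13 a lower site within 10 kb (12.3% and 24.6% of all genes), with 5 and 1 at promoters (3% and 4.3%). They had 12 higher and 18 lower sites, of which the 23 further stimulated genes had 2 and 3, and 0 passed with limma. The higher promoter sites were at Ifngr2, Tyk2, Stat3, Trim24 and Lgals3bp, and at Trim24 the libraries of the groups overlapped. At Tyk2, a receptor kinase (chr9:21125851-21126950), the Daxx-KO libraries had 87.2, 81.1 and 85.5 scaled reads and the Daxx-WT libraries 53.0 and 34.7. In Daxx-KO KLS cells 3 had a higher and 26 a lower site (9.78% and 40% of all genes), with 0 and 9 at promoters (1.98% and 8.71%), and 0 passed with limma. In DKO KLS cells 35 had a higher and 26 a lower site (54.3% and 34.9% of all genes), with 14 and 13 at promoters (14.6% and 15.1%). As deposited, 91 of 100 higher and 16 of 41 lower sites passed with limma, beside 34252 of 36740 and 7603 of 14188 in the table. Irf8, a partner of Pu.1 in myeloid cells, had 75.3 and 54.3 scaled reads at a promoter site (chr8:120735951-120736650) in DKO and 131 and 107.5 in Daxx-WT (-0.88, limma adjusted p = 0.134). Irf5 (chr6:29528501-29529750) had 65.8 and 89.9 against 166 and 202 (-1.24, limma adjusted p = 0.00796).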

How the data were processed

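ATAC-seq was measured in 24 libraries of sorted mouse cells. Per the labels, the authors used CASAVA 1.8.4, cutadapt 1.13, STAR 2.5.3 and bedtools with the mm10 build. The peak caller is not given in the sources used here. The deposited peak lists give 1 set per group, and the 5 lists from an irreproducible discovery rate procedure also give the fold enrichment of each summit as made by the authors' caller, a ratio to local background. Repeated intervals were merged. The other 6 deposited lists hold positions alone. The 3 site tables come from diffReps 1.55.6, per the file headers (window 600 bp, step 50 bp, p cutoff 0.0001), and hold scaled reads per library, which is signal that the authors divided by a constant per library. The tables also hold the authors' log2 fold changes and p-values, which were not used.

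Genes and starts were from GENCODE vM21. Scaled reads were compared as log2(value + 1) with limma 3.58.1 (R 4.3.3) over all listed sites of a table, two-sided, with Benjamini-Hochberg adjustment over every window that diffReps tested, which assumes that an unlisted window ranks behind the listed ones. The threshold was 0.05. The listed sites carry the spread that limma shares between them. The procedure was tested on simulated data whose sites were not selected for differing, so that test does not cover the selection of the listed sites. In the table of DKO KLS cells limma found 1 common spread for all sites. Replicates are separate samples in the labels and biological replicates per the methods of the study, and p-values measure the spread between these few libraries. Means per window in the headers ranged from 4.21 to 16 reads and are the one measure of depth in the files. Values per library were given for every promoter site and, per table and direction, for the 4 distal sites with the largest difference of group means, log2(mean + 1), whose order can differ from that of the limma differences printed. The KLS comparisons share their Daxx-WT libraries. Summaries and figures were made with Python 3.11.15, pandas 2.3.3, pysam 0.24.0 and matplotlib 3.10.9. Alternatives were the pseudocount, the scaling, a minimum of 10 scaled reads, the distances, the peak number, a replicate block and each library left out. The genes and lists were chosen with earlier results of these data known.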

Additional observations from a re-analysis of the deposited data

Results flagged for a closer look

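An intronic site of Oas2, which also lies within 10 kb of Oas3, was listed in opposite directions in overlapping positions of different tables. Both positions lay within 1000 bp of the start of another annotated gene. In LT-HSCs at 3 d.p.i. (chr5:120746251-120747350) the Daxx-KO libraries had 84.4, 69.7 and 74.95 scaled reads and the Daxx-WT libraries 45.1 and 37.5, a log2 difference of 0.87. In KLS cells at 3 w.p.i. (chr5:120746701-120747450) the Daxx-KO libraries had 22.3, 13.1 and 20.7 and the Daxx-WT libraries 39.2 and 38.97, a log2 difference of -1.06. Every Daxx-KO library moved one way in the first table and the opposite way in the second. The difference between the tables was not tested, and cell type, time after induction and library cannot be told apart in it.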

How the results depend on the processing

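No value of a single named site turned its direction, but the balance of calls in DKO did. It went from 54 higher and 12 lower as deposited to 3 higher and 22 lower when scaled to the mean per window. Of the values that answer a comparison, 144 stayed within their limits under an alternative, 13 moved, 4 grew stronger and 6 weaker. These values are counts and shares, and a reversal was not scored for them. Of values of single sites, 366 stayed, 36 became stronger and 45 weaker. In LT-HSCs, adjustment over listed sites alone gave 19 of 21 calls, which is no independent evidence since listing needed a difference. Higher sites numbered 7 of 12 in gene bodies and 9 of 9 in peaks. In Daxx-KO KLS cells calls numbered 27 with that adjustment, 3 with a pseudocount of 5 and 2 with the replicate block, and higher sites 0 of 8 in gene bodies and 0 of 18 within 5 kb. In DKO calls numbered 25 when scaled to the mean per window, 31 in gene bodies and 9 in peaks, and higher sites 24 of 37 and 3 of 18. Leaving out 1 library gave 0 to 0 calls in the Daxx-KO tables and 0 to 49 in DKO (0 without either DKO library, 38 without Daxx-WT replicate 1), where the lone library left was assumed to vary like the other group, and 15 to 15, 1 to 1 and 58 to 58 higher sites. Cut to 22156 peaks, distal peaks numbered 11 and 9 in Daxx-WT and Daxx-KO LT-HSCs at 3 d.p.i. and 9 and 9 in KLS cells, and Daxx-KO KLS cells kept 25 promoter peaks. DKO had 6 distal peaks with promoters taken as 2000 bp. The core was in 33.3% of promoter peaks around their centre. Numbers paired no samples (r of deviations 0.008 and 0.052 in Daxx-KO KLS, -0.003 in DKO), and the replicate block left 66 calls in DKO. No paired analysis was possible because the columns of the LT-HSC table carry no library numbers. The planned edgeR test was not run, since reads of several libraries are joined as text. The cause of these changes was not tested. Means of 4.21 to 16 reads per window limit sites outside peaks.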
